A study of Mus musculus with 7 samples.

Results

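The estrogen-related receptors (ERR) and their coactivators were followed through the loss and return of acid-secreting cells in the mouse stomach. The set holds the receptor genes Esrra, Esrrb and Esrrg, the coactivator genes Ppargc1a and Ppargc1b, which encode PGC-1 alpha and PGC-1 beta, and Perm1, a muscle-enriched regulator that acts with both families. Members were chosen by gene symbol, and each of the 6 was represented by 1 probe set, of 22180 genes measured. RNA came from the gastric corpus, where acid is made, of Atp4b-DTR mice aged 8 to 12 weeks. All mice carried this transgene, a diphtheria toxin receptor named for Atp4b, a gene of parietal cells, so that toxin removes those cells reversibly. Mice in 4 groups received 225 ng of diphtheria toxin daily for 3 days and were killed 24 h (1 array), 36 h (1 array), 48 h (2 arrays) or 72 h (2 arrays) after the last dose. The control mice (1 array) carried the same transgene and received saline. Littermate controls were used where possible, and the labels do not say whether a sample is 1 animal.

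ERR proteins are orphan nuclear receptors that bind the element TNAAGGTCA in DNA without a known natural hormone. With PGC-1 coactivators they switch on genes of the TCA cycle, fatty acid oxidation and oxidative phosphorylation, and they are best known from heart, skeletal muscle and brown fat. Parietal cells are packed with mitochondria that fuel the proton pump, and Esrrg, the gene of ERR gamma, is active in them. The question here was whether the regulators moved with the parietal cells and with the metabolic genes they are known to control.

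The parietal cell content of the tissue was checked first. Of 12 listed parietal cell markers 11 were measured, and on the control array none lay below the median gene. All 11 were lower than the control on every toxin array, with medians of -1.41 at 24 h, -0.76 at 36 h, -1.27 and -0.86 on the 48 h arrays, and -0.62 and -0.34 on the 72 h arrays (log2 difference from the control array, the scale of every difference below). Of all genes, 22.6% were lower than the control on every toxin array. Cblif is also among the chief cell markers below, so it is not a measure of parietal cells alone. It was lowest at 36 h, at -1.84 against -0.91 at 24 h, and was at -1.01 and -1.19 on the 72 h arrays. In whole tissue, fewer cells of a type and less RNA per cell cannot be told apart. Array medians lay between 4.56 and 4.71. The control and 24 h arrays had high Xist and low Eif2s3y, a female pattern, and the other 5 arrays had the reverse, so differences at 36, 48 and 72 h also compare the sexes. Only 48 h and 72 h were replicated, and whatever set the single control array apart is part of each difference given. The labels call the replicates independent samples without naming animals, so p-values measure only the spread between these arrays.

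Perm1 and Esrrb were at least 2-fold below the control on every toxin array, and Esrra, Esrrg, Ppargc1a and Ppargc1b were nearer to it. Perm1 was at -1.14 to -1.94 and Esrrb at -1.07 to -1.52, whereas no toxin array of the other 4 genes differed from the control by more than 0.44 in size. With 1 control array and pairs of arrays, none of the 6 passed limma after Benjamini-Hochberg adjustment at 48 h or 72 h against the control, at 72 h against 48 h or in the slope over time. Of all genes 0% passed in each of these 4 comparisons, while 4375, 3978, 1569 and 1929 had an unadjusted p under 0.05. At least 2-fold below the control on all 6 toxin arrays were 119 of 22180 genes (0.537%), and 2 of the 6 members, Perm1 and Esrrb, were among them. This criterion was chosen after the values were seen.

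**Figure D1:**
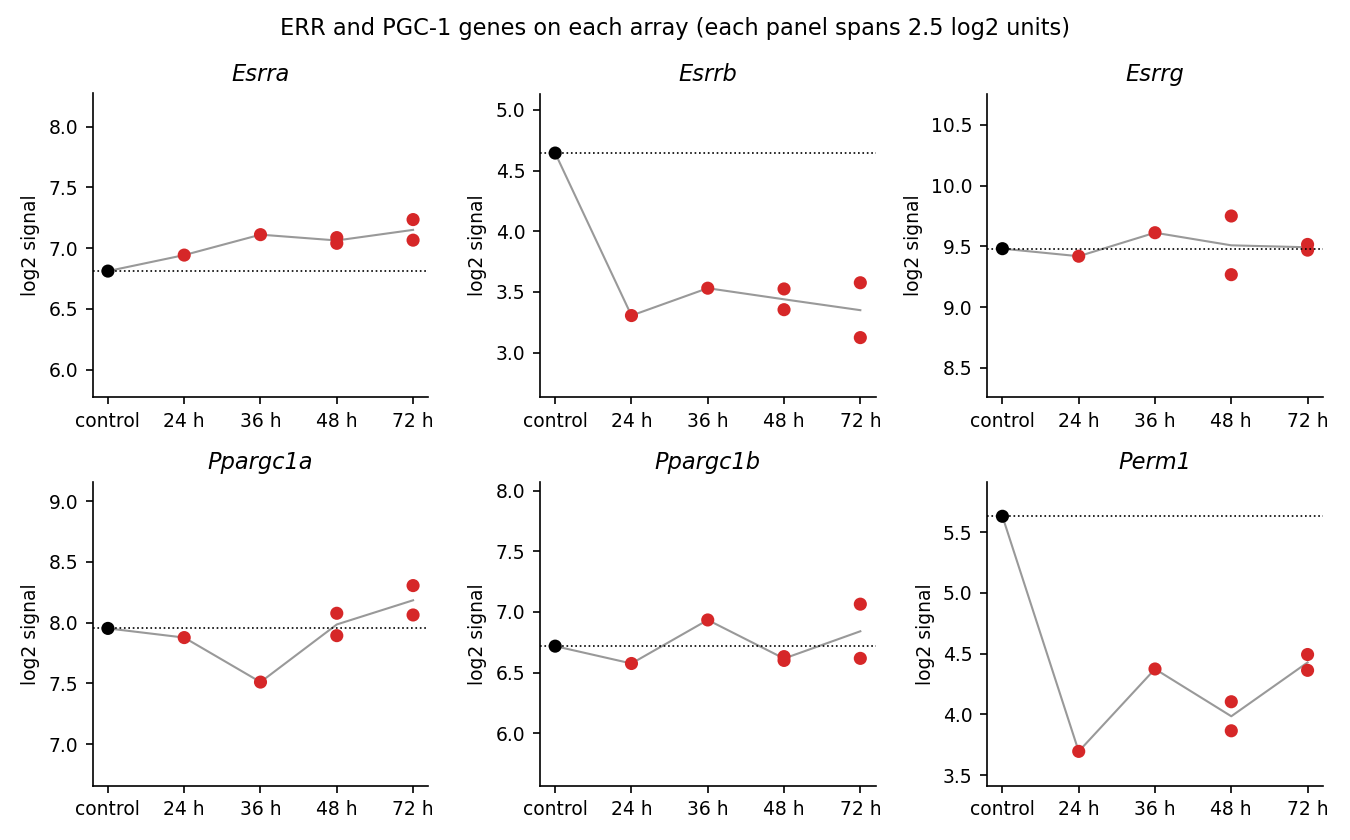
Log2 signal of the 6 genes on each array, with groups in order of time on the horizontal axis (not to scale), the control array in black, toxin arrays in red, the grey line through group means and the dotted line at the control value. Every toxin array lies below the control for Perm1 and Esrrb, and every one lies above it for Esrra, while Esrrg, Ppargc1a and Ppargc1b lie on both sides.

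Perm1 encodes a regulator that is induced by PGC-1 and ERR in muscle and promotes oxidative metabolism there. Its log2 signal was 5.63 on the control array, 3.70 at 24 h, 4.37 at 36 h, 3.86 and 4.10 on the 48 h arrays, and 4.36 and 4.49 on the 72 h arrays. The control was the highest array and the 24 h array the lowest. The probe set was dim on toxin arrays, between the 23.5 and 38.4 percentile of genes, against the 57.4 percentile on the control, so the size of the difference is not exact. Both 72 h arrays lay above both 48 h arrays, as in 16.7% of all genes. In order of level the groups ran control, 72 h, 36 h, 48 h and 24 h, and the 36 h value lay within the range of the 72 h pair.

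Perm1 differed from the control by -1.65 ± 0.14 at 48 h (limma estimate ± standard error, 2 arrays against 1), with a 95% interval from -2.08 to -1.21 and an adjusted p of 0.120, which no gene undercut in that comparison. Over the alternative settings this adjusted p ran from 0.0332 to 0.247, and it passed at 0.0332 with array medians subtracted, where the difference was -1.77. At 72 h the difference was -1.20 ± 0.14, with an interval from -1.64 to -0.77 and an adjusted p of 0.148 in limma (0.0731 to 0.288 over the alternatives). The difference between 72 h and 48 h was 0.44 ± 0.12, with an interval from 0.09 to 0.80 and an adjusted p of 0.705 (0.383 to 0.800). Over the 6 toxin arrays the slope was 0.28 ± 0.12 per 24 h, with an adjusted p of 0.591. Perm1 had an unadjusted p under 0.05 at 48 h and 72 h, among the lower genes, which made up 11.6% and 10.0% of all genes in these comparisons, and at 72 h against 48 h, among the higher genes, which made up 4.27%.

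Perm1 is known from skeletal and heart muscle, so muscle markers were read beside it. The 12 skeletal muscle markers included Myh1, Myh2, Myh4, Acta1 and Mb, and 8 of the 12 lay below the median gene on every array. Acta1, at 5.92 on the control, was not among these 8. The mean log2 signal of the 12 was 4.43 on the control and 4.41 to 4.56 on the toxin arrays. Their median difference from the control was between -0.01 and 0.09. Tnni2 was above the control on every toxin array, at 0.41 to 0.76, Myh2 was below it on every one, at -0.01 to -0.38, and Casq1 was at -0.16 to 0.39. The 12 smooth muscle markers had medians between -0.22 and 0.08. Parietal cell markers were also lowest at 24 h and nearest to the control at 72 h. Their mean log2 signal was 9.95 on the control, 8.10 at 24 h, 8.70 at 36 h, 8.27 and 8.70 on the 48 h arrays, and 8.97 and 9.26 on the 72 h arrays. The part of any of these cells in the Perm1 result was not tested. The 24 h array, which shared the sex pattern of the control, held the largest Perm1 difference. This array is unreplicated, and the part of sex was not tested.

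The promoter of Perm1 is shown because Perm1 was lower on every toxin array and its upstream sequence, alone among the 5 members matched, held the core of the ERR element. RefSeq promoters (GRCm38.p6, 250 bases before to 50 after each annotated start) covered 9 starts of 5 members. None held TNAAGGTCA on either strand, an element found in 1.28% of all 32851 promoters. The shorter AAGGTCA, contained in the longer element and searched after that result, was found in 4.72% of all promoters and in 1 of the 9, that of Perm1. Shown with it are 2 genes of the lists described below whose promoters held an element and whose signal was lower on all toxin arrays: Acadm (AAGGTCA) and Kcnj16 (TNAAGGTCA). They were picked by hand, after their values were seen, from the target and acid secretion lists; Prkag2, Mef2c, Emcn and Chia1 of other lists also met this description. The 250 bases before the start are printed on the gene's strand, with the match in capitals; all 3 matches lie on the opposite strand, so that AAGGTCA reads TGACCTT. The windows are Perm1 at chr4:156215677-156215926 (+ strand), Acadm at chr3:153944644-153944893 (- strand) and Kcnj16 at chr11:110967783-110968032 (+ strand), and the capitals begin 202, 249 and 190 bases before the start in that order. These are matches of letters, and binding was not measured.
Perm1: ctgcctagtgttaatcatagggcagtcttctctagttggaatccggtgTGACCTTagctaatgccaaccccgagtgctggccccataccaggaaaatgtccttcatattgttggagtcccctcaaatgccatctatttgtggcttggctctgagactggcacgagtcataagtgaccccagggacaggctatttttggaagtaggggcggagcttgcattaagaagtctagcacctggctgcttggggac
Acadm: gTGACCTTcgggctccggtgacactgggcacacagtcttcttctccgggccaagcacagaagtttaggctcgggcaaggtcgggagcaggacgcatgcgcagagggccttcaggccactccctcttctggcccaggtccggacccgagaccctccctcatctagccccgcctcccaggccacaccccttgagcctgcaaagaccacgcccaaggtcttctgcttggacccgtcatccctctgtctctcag
Kcnj16: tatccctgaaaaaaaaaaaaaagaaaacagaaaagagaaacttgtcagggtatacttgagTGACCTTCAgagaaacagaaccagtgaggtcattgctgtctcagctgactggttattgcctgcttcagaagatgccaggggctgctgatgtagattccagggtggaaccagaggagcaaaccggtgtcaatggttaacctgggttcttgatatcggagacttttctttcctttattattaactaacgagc

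Esrrb encodes ERR beta, known for its roles in placenta, inner ear and pluripotent stem cells. Its log2 signal was 4.64 on the control array, 3.31 at 24 h, 3.53 at 36 h, 3.35 and 3.53 on the 48 h arrays, and 3.12 and 3.58 on the 72 h arrays. The control was the highest of the 7 arrays, and the 6 toxin arrays overlapped one another. The differences from the control were -1.07 to -1.52. Their size is not exact, because the probe set was dim: it stood at the 41.2 percentile of genes on the control array and between the 13.9 and 21.5 percentile on toxin arrays.

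Esrrb differed from the control by -1.20 ± 0.24 at 48 h, with an interval from -1.95 to -0.46 and an adjusted p of 0.162 in limma (0.0671 to 0.314 over the alternatives). At 72 h it differed by -1.29 ± 0.24, with an interval from -2.04 to -0.55 and an adjusted p of 0.171 (0.105 to 0.289). Its level at 72 h differed from that at 48 h by -0.09 ± 0.20, less than the 0.45 between the 2 arrays of 72 h. The slope over the toxin arrays was -0.02 ± 0.09 per 24 h, with an interval from -0.25 to 0.21. At 72 h Esrrb lay on both sides of its 24 h value of -1.34, at -1.52 and -1.07, and movement at so low a signal may not be visible. The 24 h array shared the sex pattern of the control, but it is unreplicated and the part of sex was not tested.

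**Figure D2:**
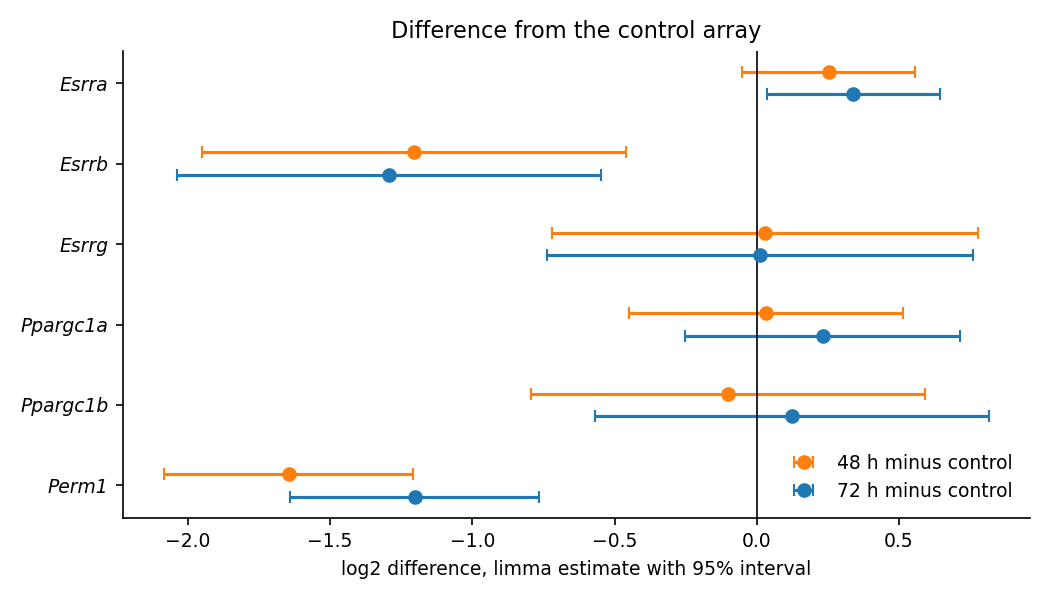
Log2 difference from the control array at 48 h (orange) and 72 h (blue) for each gene, as limma estimates (points) with 95% intervals (bars). The intervals of Perm1 and Esrrb lie below 0 at both times, that of Esrra lies above 0 at 72 h, and those of Esrrg, Ppargc1a and Ppargc1b include 0.

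Esrrg encodes ERR gamma, the family member described in parietal cells. Its log2 signal was 9.48 on the control array, 9.42 at 24 h, 9.61 at 36 h, 9.27 and 9.75 on the 48 h arrays, and 9.47 and 9.52 on the 72 h arrays. The 24 h array, where the parietal cell markers were lowest, was only 0.06 below the control. The lowest and the highest of the 7 arrays were the 2 arrays of 48 h, 0.48 apart. The first of these had the lower parietal cell marker median of the pair, -1.27 against -0.86. Esrrg stood between the 96.9 and 98.4 percentile of genes on the toxin arrays. The difference from the control was 0.03 ± 0.24 at 48 h, with an interval from -0.72 to 0.78, and 0.01 ± 0.24 at 72 h, with an interval from -0.74 to 0.76. These intervals do not exclude a change of 1.5-fold in either direction. The group means differed by less than the spread within the 48 h pair, so the groups have no order.

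Esrra encodes ERR alpha, the most widely expressed ERR and a target of PGC-1 alpha. Its log2 signal was 6.81 on the control array, 6.94 at 24 h, 7.11 at 36 h, 7.04 and 7.09 on the 48 h arrays, and 7.24 and 7.07 on the 72 h arrays. All 6 toxin arrays lay above the control, by 0.13 to 0.42, as they did in 20.2% of all genes (22.6% lay below it on all 6). The difference was 0.25 ± 0.10 at 48 h, with an adjusted p of 0.313 in limma (0.236 to 0.535 over the alternatives). At 72 h it was 0.34 ± 0.10, with an interval from 0.04 to 0.64 and an adjusted p of 0.247 (0.181 to 0.369). Esrra had an unadjusted p under 0.05 at 72 h, among the higher genes, which made up 7.93% of all genes. The 36 h value of 0.30 became 0.20 with array medians subtracted.

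Ppargc1a encodes PGC-1 alpha, the coactivator that responds to cold, fasting and exercise. Its log2 signal was 7.95 on the control array, 7.88 at 24 h, 7.51 at 36 h, 7.89 and 8.08 on the 48 h arrays, and 8.30 and 8.06 on the 72 h arrays. The 36 h array was the lowest, at -0.44, and both 72 h arrays were above the control, by 0.35 and 0.11. The 24 h array was at -0.08 and the 48 h pair at -0.06 and 0.12. The slope over the toxin arrays was 0.24 ± 0.10 per 24 h, with an interval from -0.01 to 0.49 and an adjusted p of 0.591 in limma. The difference between 72 h and 48 h was 0.20 ± 0.13, with an interval from -0.19 to 0.59.

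Ppargc1b encodes PGC-1 beta, the related coactivator tied to basal mitochondrial content. Its log2 signal was 6.72 on the control array, 6.58 at 24 h, 6.93 at 36 h, 6.63 and 6.60 on the 48 h arrays, and 6.62 and 7.06 on the 72 h arrays. The 36 h array and the second 72 h array were above the control, by 0.22 and 0.35, and the other 4 were below it by at most 0.14. The 2 arrays of 72 h differed by 0.45 and those of 48 h by 0.03. The difference from the control was -0.10 ± 0.22 at 48 h and 0.12 ± 0.22 at 72 h, and both intervals included 0.

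The behaviour of the 3 ERR genes was set beside the rest of the nuclear receptor family, the ligand-regulated and orphan transcription factors of which 45 were measured. In 36 of the 45 genes every toxin array lay within 0.5 of the control. The share of all genes that did so was not counted, so the count cannot say whether the family differs from other genes. The median gene was at 0.00 on every toxin array. Esrrb had the lowest mean difference over the toxin arrays, -1.24, and was the only family member at least 2-fold below the control on all 6. The next lowest was Thrb, a thyroid hormone receptor gene, at -0.62 to -0.92, followed by Rora, a clock-linked orphan receptor gene, at -0.37 to -0.68. At the other end stood Nr4a3, an immediate early receptor gene, at 0.52 to 1.32, and Nr1d1, the clock repressor gene REV-ERB alpha, at 0.32 to 0.83. Esrra had a mean difference of 0.27 and Esrrg of 0.02, against a family median of 0.01. Apart from the ERR genes, 42 receptors were measured of 46 listed, and limma called 0 of them. Of these 42, 1 was lower and 5 higher at 48 h with an unadjusted p under 0.05 (11.6% and 8.16% of all genes), and 2 were lower and 6 higher at 72 h (10.0% and 7.93%).

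**Figure D3:**
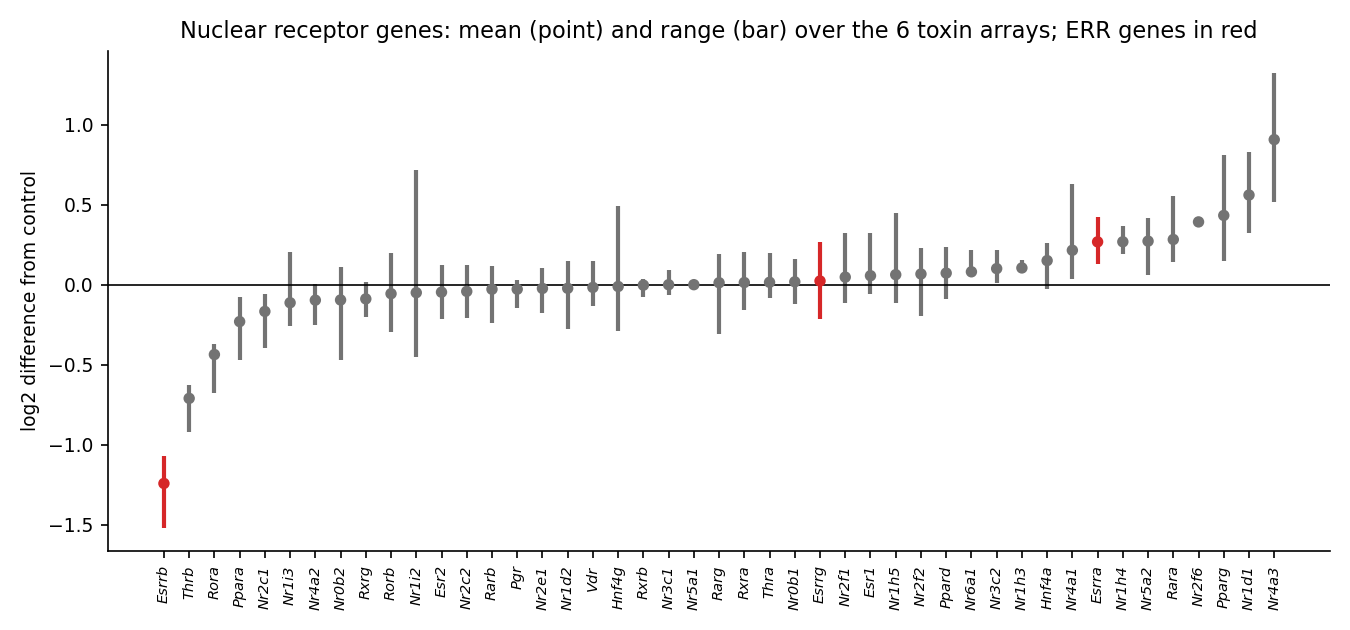
Mean (point) and range (bar) of the log2 difference from the control over the 6 toxin arrays for 45 nuclear receptor genes, in order of the mean, with ERR genes in red. Esrrb is at the low end with its whole range below -1, Esrrg is near 0 and Esrra is above 0 over its whole range.

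Coregulators that bind ERR and PGC-1 proteins, or modify them, showed small differences in both directions. Of 31 listed 28 were measured, with medians between -0.02 and 0.01 on the toxin arrays, where 45.0% to 46.7% of all genes were lower than the control and the median gene was at 0.00. Kat2b, an acetyltransferase gene, was at -0.61 to -0.83, and Pnrc1, a gene of a nuclear receptor coactivator, at -1.004 at 36 h and between -0.62 and -0.64 elsewhere. Crebbp, the gene of the acetyltransferase CBP, was at 0.55 to 0.84. Nrip1, the gene of the corepressor RIP140, which opposes PGC-1, stayed within 0.10 of the control on all toxin arrays. Limma called 0 of the 28, and 6 were lower and 5 higher at 48 h with an unadjusted p under 0.05, beside 11.6% and 8.16% of all genes.

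Upstream of PGC-1, 28 of 30 listed kinases and transcription factors were measured, with medians between -0.04 and -0.18. Camk2b, a calcium/calmodulin kinase subunit gene, was at -0.93 to -1.42, and Prkaa2, a catalytic subunit gene of the energy sensor AMPK, at -0.25 to -0.75. Akt1, a growth factor kinase gene, was at 0.42 to 0.53. Of 28 listed genes of mitochondrial biogenesis 26 were measured, with medians between -0.04 and 0.00. Tfb2m, a mitochondrial transcription factor gene, was at -0.67 to -1.25 on the brightest of its 3 probe sets, Ssbp1, which binds mitochondrial DNA, at -0.45 to -0.83, and Hspd1, a mitochondrial chaperonin gene, at 0.61 to 0.99. Limma called 0 genes of either list. At 48 h, 5 upstream genes were lower and 2 higher with an unadjusted p under 0.05, and 4 biogenesis genes were lower and 3 higher, beside 11.6% and 8.16% of all genes.

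Most of the metabolic genes that ERR and PGC-1 proteins are known to control lay below the control from 24 h to 48 h, and fewer did at 72 h. A list of 20 genes described as their targets, mostly in heart and muscle, had 18 measured. Of these, 15 were lower at 24 h, 14 at 36 h, 16 and 14 on the 48 h arrays, and 10 on both arrays of 72 h. The medians were -0.41, -0.14, -0.35, -0.20, -0.01 and -0.09 in the same order. Of all genes, 45.0% to 46.7% were lower on each toxin array, beside 55.6% of the targets on both arrays of 72 h. Limma called 0 of the 18, and 7 were lower with an unadjusted p under 0.05 at 48 h and 7 at 72 h, beside 11.6% and 10.0% of all genes. At 72 h against 48 h, 7 were higher, beside 4.27% of all genes, and 0 lower.

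Cox7a1, a cytochrome c oxidase subunit gene of muscle and brown fat, differed most among these targets. It was at -2.89 at 24 h, -2.36 at 36 h, -2.73 and -2.64 on the 48 h arrays, and -1.90 and -1.04 on the 72 h arrays. All toxin arrays were below the control, and the 2 arrays of 72 h were the nearest to it. The limma difference was -2.68 ± 0.43 at 48 h (adjusted p 0.137) and -1.47 ± 0.43 at 72 h (adjusted p 0.249). Slc25a4, the gene of the heart and muscle ADP/ATP carrier, was at -1.46, -0.83, -1.17, -1.16, -0.70 and -0.49 over the toxin arrays in order of time. Phyh, a peroxisomal hydroxylase gene, was at -0.76 to -1.44, and Acadm, the medium-chain acyl-CoA dehydrogenase gene whose promoter is shown above, at -0.38 to -0.96. Targets without such a difference included Mfn2, a gene of mitochondrial fusion, at -0.29 to 0.16, and Sirt3, a mitochondrial deacetylase gene, at -0.07 to 0.37. Among them were also Cycs at -0.30 to 0.03, Fabp3 at -0.05 to 0.32 and Ckm at -0.11 to 0.26. Ckmt2 at -0.08 to 0.07 and Cox6a2 at -0.29 to 0.50 were dim, at 3.38 and 4.65 on the control.

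**Figure D4:**
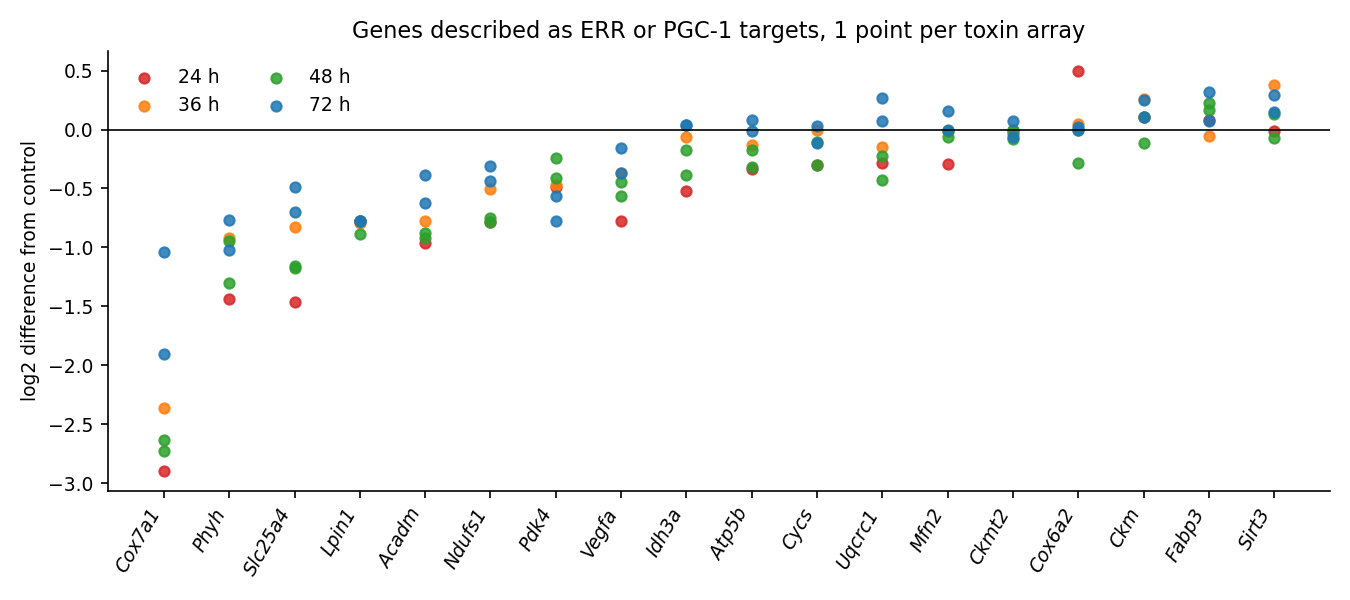
Log2 difference from the control for 18 genes described as ERR or PGC-1 targets, 1 point per toxin array, coloured by time after the last dose and ordered by the mean. Cox7a1 is lowest, from -2.89 at 24 h to -1.04 on the second 72 h array, and at 72 h the 2 sets of points have medians of -0.01 and -0.09.

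The pathway lists were likewise nearest to the control, or above it, at 72 h. Of 22 measured TCA cycle genes (23 listed), 22 were lower at 24 h, 20 at 36 h, 21 and 22 on the 48 h arrays, and 14 and 10 on the 72 h arrays. The shares on the 72 h arrays were 63.6% and 45.5%, beside 45.0% and 45.7% of all genes. The TCA cycle medians in order of time were -0.44, -0.19, -0.40, -0.34, -0.11 and 0.03. Idh3g and Idh2, isocitrate dehydrogenase genes, were at -0.56 to -0.94 and -0.45 to -0.91, and Suclg2, a succinyl-CoA ligase gene, at -0.63 to -0.73. Fatty acid oxidation had 21 of 22 genes measured, with medians of -0.32, -0.26, -0.24, -0.39, -0.19 and -0.09, including Acat1, a thiolase gene, at -0.63 to -0.90. Oxidative phosphorylation had 57 of 63 genes measured, with medians of -0.31, -0.12, -0.34, -0.18, 0.05 and 0.27, including the complex I genes Ndufb9 at -0.36 to -0.78 and Ndufc1 at -0.31 to -0.996. At 48 h, 13 TCA cycle, 7 fatty acid oxidation and 17 oxidative phosphorylation genes were lower with an unadjusted p under 0.05, beside 11.6% of all genes, and 0 higher. At 72 h against 48 h, 10, 8 and 36 of them were higher, beside 4.27% of all genes, and 1 fatty acid oxidation gene was lower. Limma called 0 genes of the 3 lists.

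**Figure D5:**
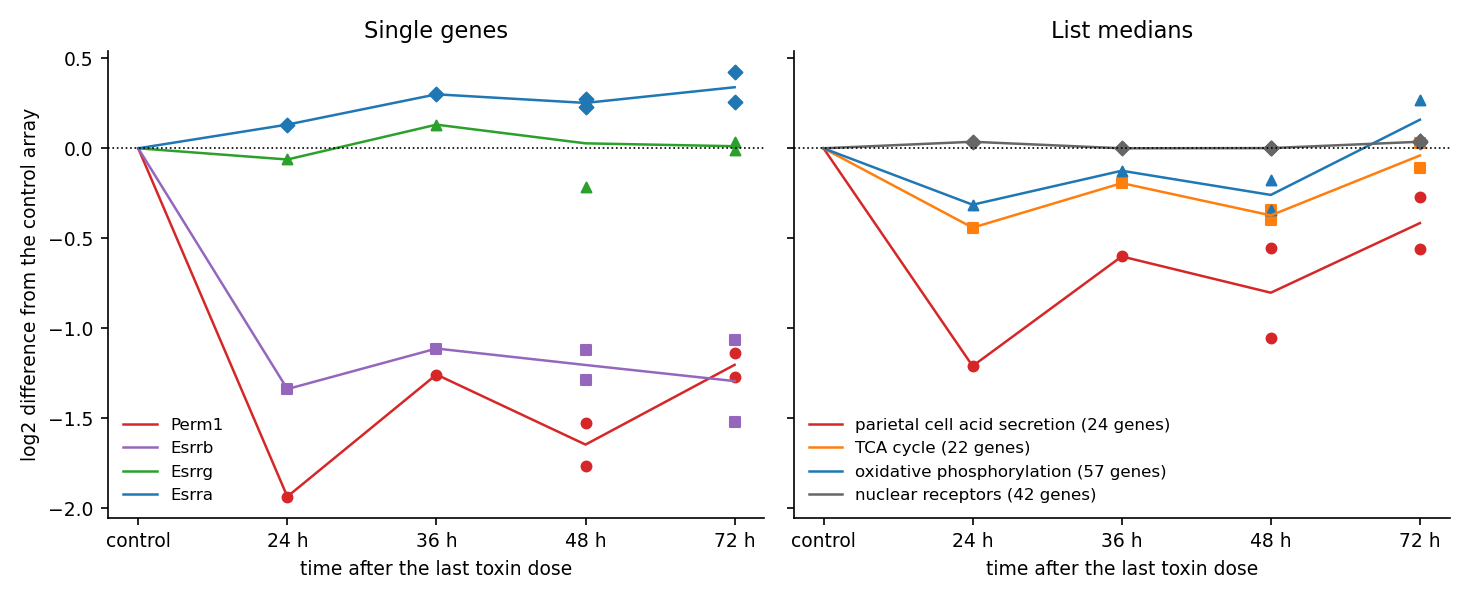
Log2 difference from the control for 4 of the regulators (left) and for the medians of 4 gene lists (right), 1 point per toxin array, with lines through group means and groups in order of time (not to scale). Perm1 and the acid secretion list are lowest at 24 h, while Esrrg stays within 0.27 of the control throughout.

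Genes of acid secretion, the function for which parietal cells need this metabolism, had lower medians than the metabolic lists on every toxin array. Of 24 genes, all measured, 20 were lower at 24 h, 19 at 36 h, 19 and 20 on the 48 h arrays, and 19 on both arrays of 72 h. The medians in the same order were -1.21, -0.60, -1.05, -0.55, -0.56 and -0.27. Of all genes, 45.0% to 46.7% were lower on each toxin array. The anion exchanger gene Slc26a7 was at -3.38 to -4.40 and did not approach the control, whereas the water channel gene Aqp4 went from -3.08 at 24 h to -1.48 and -0.75 at 72 h, and the bicarbonate exchanger gene Slc4a2 from -2.26 to -0.81 and -0.25. Hrh2, the histamine receptor gene that drives secretion, was at -0.37 to -2.02, and Slc26a9, an anion channel gene, at -0.12 to -1.92. Vegfb, a growth factor gene, was at -1.12 to -1.81, and the potassium channel gene Kcnj16, whose promoter is shown above, at -1.12 to -1.74. Cftr, a chloride channel gene also in the mucous neck list, was above the control, at 0.60 to 2.41. Its probe set was dim, at 3.52 on the control, and the 48 h arrays were at 2.41 and 0.84, so the size is not exact. Limma called 0 of the 24, and 7 were lower and 0 higher at 48 h with an unadjusted p under 0.05, beside 11.6% and 8.16% of all genes.

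Across the 7 arrays, Perm1 tracked the median of the acid secretion list with a Pearson r of 0.90, and of 0.94 over the 6 toxin arrays alone. Over 7 arrays and over the toxin arrays alone, r with the same median was 0.42 and 0.60 for Esrrg, -0.18 and 0.62 for Esrra, and 0.71 and 0.44 for Esrrb. It was 0.21 and 0.28 for Ppargc1a, and 0.49 and 0.66 for Ppargc1b. With the TCA cycle list median, r was 0.80 and 0.93 for Perm1, 0.65 and 0.76 for Ppargc1b, and 0.51 and 0.20 for Esrrb. It was -0.03 and 0.58 for Esrra, 0.16 and 0.22 for Esrrg, and 0.24 and 0.27 for Ppargc1a. The value of Esrra turned its sign when the control was left out. Between Perm1 and Esrrb r was 0.89 over 7 arrays but 0.29 over the toxin arrays. These values describe 7 arrays that share 1 time course, and the 7-array values also share the lone control. On the second 72 h array, where Perm1 was at -1.14, genes of the acid secretion list lay between -3.72 (Slc26a7) and 0.60 (Cftr). The pump genes Atp4a and Atp4b were at -0.15 and -0.02 there, with control signals of 12.8 and 12.9 near the top of the array's range (13.4), and Kcnj16 and Vegfb were both at -1.12.

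Genes whose pattern was most like each member were ranked by Pearson r over the 7 arrays, among up to 4381 genes brighter than the median gene that spanned at least 0.5. For Perm1 they were Fam13a (r 0.99), Tcn2, the gene of the vitamin B12 carrier transcobalamin (0.99), and Lactb2, a mitochondrial nuclease gene (0.99). Fam13a was at -0.64 to -1.16 and Lactb2 at -0.50 to -0.95 on the toxin arrays. For Esrrb they were Lhfp, Phkb, a phosphorylase kinase subunit gene, and Lztfl1, a gene of ciliary transport, each with an r of 0.99, and their toxin arrays all lay below the control, Lztfl1 at -0.83 to -1.12. For Esrrg the closest genes reached lower values: Hipk2, a nuclear kinase gene, 0.85, Cyp2e1, a cytochrome P450 gene, 0.84, and Pnpla7, a lysophospholipase gene, 0.83. Esrra was most like Pgap1, an enzyme gene of GPI anchors (0.99), Gjb1, a gap junction gene (0.965), and Ttc22 (0.96). Ppargc1a was most like Hyi (0.96), Maged2 (0.95) and Bcl7c (0.93). Ppargc1b was most like Hk2, the hexokinase 2 gene (0.94), Mrpl37, a mitochondrial ribosomal protein gene (0.91), and Fam20a (0.91).

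Markers of other cells in the corpus also differed from the control on the same arrays. The 10 measured chief cell markers had medians between -0.47 and -0.85. Pga5 was at -1.14 to -3.39. Slc16a7 was at -1.03 to -2.14 and, like the parietal cell marker medians, was nearest to the control on the 72 h arrays. Whether Slc16a7 stands for chief cells here was not tested. Cblif, at -0.86 to -1.84, was also in the parietal cell list. Pgc, at 13.4 on the control and near the top of the array's range, was at -0.19 to 0.09. Cym and Dner lay on both sides of the control. The 10 endothelial markers had medians between -0.62 and -1.09, with Kdr at -1.06 to -1.57. All 21 measured cell division genes were higher on every toxin array, as were 20.2% of all genes. The cell division medians were 1.43 at 24 h and 0.76 and 0.34 at 72 h. The adipocyte list, read because PGC-1 is active in fat, had medians between -0.25 and 0.08, with Fabp4 at -0.35 to -1.29. Ucp1, the defining gene of brown fat, stayed within 0.15 of the control, but it was dim, at 3.50 on the control array. A difference at so low a signal may not be visible. On each array 5 or 6 of the 10 adipocyte markers lay below the median gene. Among 8 surface pit markers, Capn8 was at 0.10 to 0.95 and Muc5ac at 0.30 to 0.58, and 5 others stood at 12.7 to 13.1 on the control, near the top of the array's range. The 11 immune markers had medians between -0.06 and 0.17, with Ly6c2 at -1.26 to -1.80 and Cpa3 at -0.29 to 1.78. Mucous neck markers had medians between -0.30 and 0.58, with Gkn3 at 0.07 to 1.85 and A4gnt at -0.21 to -1.54. Endocrine markers had medians between -0.32 and 0.33, with Chgb at 1.19 to 1.83, Gast at 0.17 to 2.48 and Sst at -0.36 to -1.60. Neuronal and glial markers had medians between -0.18 and -0.01, and fibroblast markers between -0.32 and -0.08. Squamous forestomach markers did not follow the groups, with Krt4 at -3.58 and -0.04 in the 48 h pair and at 0.72 and -3.67 in the 72 h pair. The part of any of these cells in the levels of the 6 regulators was not tested. At least 2-fold below the control at 24 h and 36 h were 1.67% and 1.61% of all genes, and both Perm1 and Esrrb were among them at both times.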

How the data were processed

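Total RNA of snap-frozen gastric corpus was measured on 1 single-channel array per sample (7 arrays, 41345 probe sets). The deposited values are log2 signal, for which the submitters' processing notes name RMA and Partek, both run by the authors. The genome build and tool versions are not given in the sources here. Values were used as deposited. Precision is limited by how few arrays there are.

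Probe sets with 1 gene in the platform's annotation (23521; 1814 had several and 16010 none) were kept, the brightest per gene, giving 22180 genes. Names were checked by Entrez identifier against RefSeq genes of GRCm38.p6 (23328 matched, 193 not, 0 changed). Genes were fitted with limma 3.58.1 in R 4.3.3, two-sided, with a mean per group over all 7 arrays (2 residual and 1.15 prior degrees of freedom) or a slope over the 6 toxin arrays; the lone control is assumed to vary like the pairs. Adjusted p-values are Benjamini-Hochberg over all genes, called under 0.05, and the fits were tested on simulated data. The 24 h and 36 h arrays have no test.

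Members and lists were chosen with earlier results of these data known. Named genes come from the members, the 3 genes most like each, the 3 largest mean differences per list and those of at least 1 in 4 lists. Others were chosen after their values were seen (Atp4a, Atp4b, Mfn2, Nrip1, Rora, Sirt3, Ucp1, Pgc, Cym, Dner, Cycs, Fabp3, Ckm, Ckmt2, Cox6a2 and the muscle examples). Alternatives were another scaling, the mean of probe sets, leaving out dim genes or single arrays, trend and robust moderation, log2 of hours and a replicate block. Replicate numbers were not used to pair arrays: the pair differences at 48 h and 72 h had an r of -0.13 over all genes (genes do not vary independently).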

Additional observations from a re-analysis of the deposited data

Results flagged for a closer look

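The median of the oxidative phosphorylation list was below the control on both 48 h arrays (-0.34 and -0.18) and above it on both 72 h arrays (0.05 and 0.27), a difference of 0.42 between the means of the pairs. The median of the adipocyte marker list was likewise below the control on both 48 h arrays (-0.12 and -0.25) and at or above it on both 72 h arrays (0.00 and 0.08), a difference of 0.23. Of the 10 adipocyte markers, 5 or 6 lay below the median gene on each array. Neither difference was tested as a list, and no gene of either list was called by limma at 72 h against 48 h, where 36 of 57 and 2 of 10 genes were higher with an unadjusted p under 0.05.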

How the results depend on the processing

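Limma called 0 genes at 48 h and 72 h against the control, at 72 h against 48 h and in the slope, where 4375, 3978, 1569 and 1929 genes had an unadjusted p under 0.05. With array medians subtracted it called 167 at 48 h and 30 at 72 h against the control, and with quantile normalisation again 7 and 5. Perm1 was among those called at 48 h with medians subtracted (-1.77, adjusted p 0.0332). The 2 comparisons against the control kept their direction for Perm1, Esrrb and Esrra in every alternative; leaving out dim genes removed Perm1 and Esrrb. The small values of other members changed sign. Against the control, Esrrg at 48 h became -0.0916 with medians subtracted and -0.21 without the second 48 h array (range -0.21 to 0.27 over single arrays left out), and at 72 h -0.0404 with medians subtracted (range -0.0119 to 0.0349). Ppargc1a at 48 h became -0.0866 with medians subtracted (range -0.0595 to 0.12), and Ppargc1b at 72 h -0.10 without the second 72 h array (range -0.10 to 0.35). At 72 h against 48 h, Esrrg became 0.0512 with medians subtracted (range -0.26 to 0.23), and Esrrb ranged from -0.32 to 0.14. In the slope, quantile normalisation again gave 0.0021 for Esrrb and -0.0101 for Esrrg, and the ranges were -0.12 to 0.11 for Esrrb, -0.0586 to 0.0293 for Esrrg and -0.0404 to 0.18 for Ppargc1b. The 36 h value of Esrra moved to 0.20 with medians subtracted. The cause of these changes was not tested. Leaving out single arrays, limma called 0 genes in each comparison; the count at least 2-fold below the control was 120 to 173 over the 5 arrays left. With a replicate block the count of calls at 72 h against 48 h was 0, as with the numbers crossed, a pairing added after seeing the data. The block left the Perm1 difference at 0.44. List medians under other settings moved by more than the spread of the pairs in 121 cases and by less in 293.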
